A study of Mus musculus with 2 samples.

Results

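The axon guidance ligands and receptors of the newborn mouse adrenal gland were taken from total RNA-seq by gene symbol. Protein-coding symbols beginning with Efna, Efnb, Epha, Ephb, Sema, Plxn, Robo or Unc5, or with Slit or Ntn and a digit, were kept, together with Nrp1, Nrp2, Dcc and Neo1. This gave 71 of 43346 Ensembl gene rows. One of them, Unc50, encodes a Golgi protein and shares only the first letters with the UNC5 netrin receptors, so it is described apart and the other 70 genes form the set below. Unc5cl was kept in the netrin receptor family because of its UNC5-like intracellular domains, though it is not known as a netrin receptor. Ntn3 was not analysed here.

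The study held 2 libraries of strain B6NCrl at postnatal day 0, each from the 2 adrenals of 1 pup. Per the labels the pups share 1 pregnant animal number, and 10 ng of RNA went into each library. Neither a genotype beyond the strain nor a treatment is named. Both libraries form 1 group with no contrast between conditions, so levels are given for each pup and as mean ± SD (n = 2). Each pup is a single library, so differences between pups carry no p-value. Gene counts summed to 41504306 in pup 1 and 40799446 in pup 2. Levels are TPM, transcript abundances scaled for transcript length and library depth, so they can be compared between genes.

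Guidance cues are secreted or membrane-bound ligands that turn growing axons, migrating neural crest cells and sprouting vessels toward or away from their source. Ephrins bind Eph receptor tyrosine kinases, semaphorins bind plexins with or without neuropilin co-receptors, Slits bind Robo receptors, and netrins bind Dcc, neogenin and the UNC5 receptors. In the adrenal gland, neural crest-derived chromaffin cells and sympathetic fibres sit inside a steroid-making cortex with a dense bed of capillaries. Nerves, vessels and migrating cells of the gland can therefore all use these families. In bulk tissue, more cells of a type and more RNA per cell cannot be told apart.

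Of the 70 genes, 50 (71.4%) reached TPM 1 in both pups, against 60.4% of 21461 nuclear protein-coding genes. A further 6 genes reached it in 1 pup only, namely Epha4, Slit1, Unc5b, Plxna2, Sema3g and Sema6b. The 14 genes under TPM 1 in both pups were Epha1, Epha6, Epha8, Ephb1, Sema3e, Sema4g, Sema7a, Plxnb3, Robo3, Ntn4, Ntn5, Dcc, Unc5d and Unc5cl. Each family except the netrins and the netrin receptors had most of its members above the threshold, and netrins had only Ntn1. The median over the 70 genes was 3.56 and 3.72 TPM in the pups. The 14 genes with a mean of at least 10 TPM were Plxnb2, Nrp1, Efnb1, Efna5, Ntn1, Efna1, Slit3, Sema3c, Ephb4, Sema4b, Neo1, Robo1, Ephb6 and Plxnd1.

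**Figure D1:**
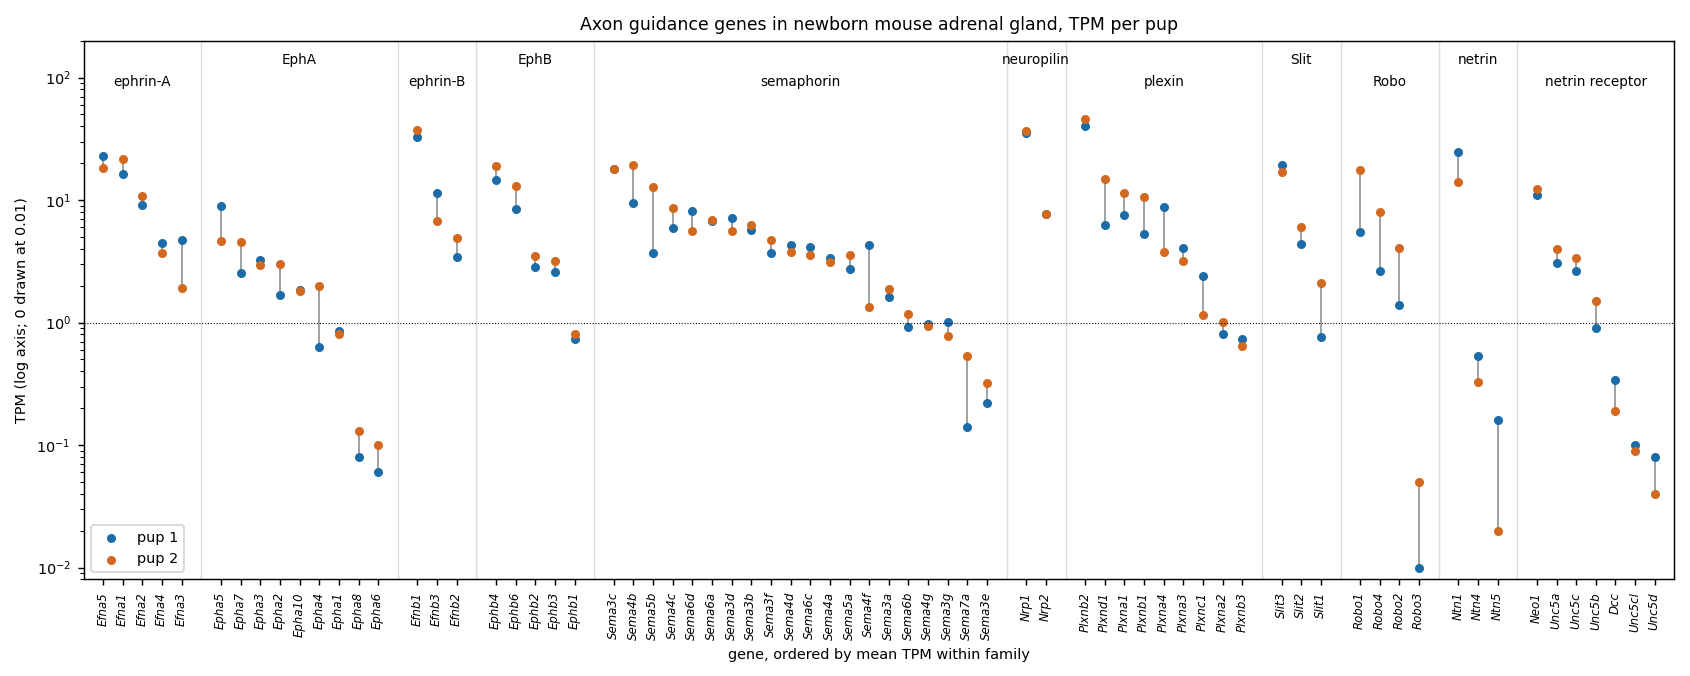
TPM of each of the 70 guidance genes (log axis) in pup 1 and pup 2, grouped by family and ordered by mean TPM, with a line joining the pups, a dotted line at TPM 1 and a level of 0 drawn at the foot of the axis. Plxnb2, Nrp1 and Efnb1 stand highest, and all of Robo1, Robo2 and Robo4 lie higher in pup 2.

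Semaphorins had the highest summed level of the families, at 92.5 and 109 TPM in pups 1 and 2 over 20 genes. Plexins followed with 76.1 and 93.0 TPM over 9 genes, then ephrin-A with 57.9 and 56.3 TPM, ephrin-B with 47.6 and 49.1 TPM and the neuropilins with 43.1 and 44.5 TPM. This order held in both pups, though semaphorins (101 ± 11.3 TPM) and plexins (84.6 ± 11.9 TPM; SD, n = 2) overlapped in their spread. It did not hold on other measures. Over coding transcripts plexins (48.1 TPM) lay below ephrin-A (57.5 TPM) in pup 1, and by counts plexins held 22.5% and semaphorins 20.3% of the set. EphB receptors summed to 34.2 ± 7.15 TPM and Slits to 24.8 ± 0.502 TPM (SD, n = 2). Netrins (20.0 ± 7.76 TPM), EphA receptors (19.9 ± 0.0424 TPM), netrin receptors (19.9 ± 2.52 TPM) and Robo receptors (19.6 ± 14.2 TPM) had close means (SD, n = 2). Within each pup they were apart. Netrins summed to 25.5 and 14.5 TPM in pups 1 and 2, and Robo receptors to 9.55 and 29.6 TPM. EphA receptors had 19.9 and 20.0 TPM, and netrin receptors 18.1 and 21.6 TPM. The order of these families differed between the pups, so their means do not rank them. The 34 ligand genes summed to 248 and 253 TPM in the pups. The 35 receptor genes, counted without Unc50 and Unc5cl, summed to 196 and 248 TPM. In protein-coding transcripts alone, the sums were 219 and 214 TPM for ligands and 157 and 208 TPM for receptors.

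**Figure D2:**
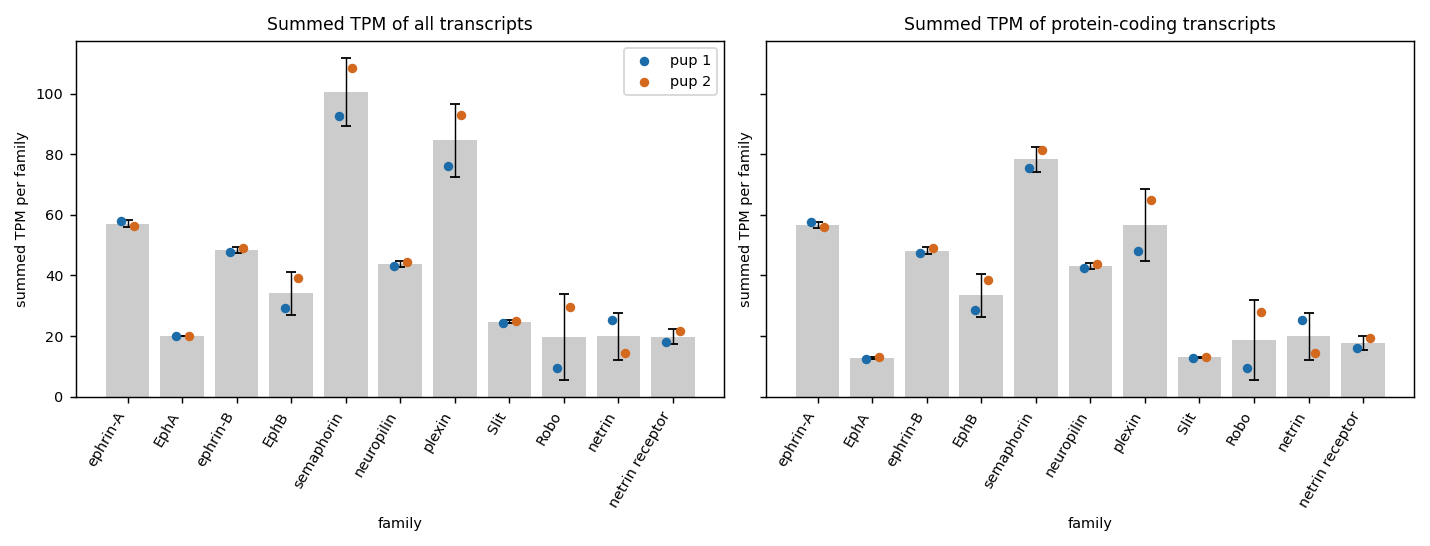
Summed TPM per family over all transcripts (left) and over protein-coding transcripts (right). Bars are means of the 2 pups, error bars are SD, and points are single pups. Semaphorins stand highest in both panels, and plexins stand lower in the right panel than at the 84.6 TPM of the left one.

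Among the ephrins, Efnb1 was the most abundant. It encodes a transmembrane ephrin (ENSMUSG00000031217.8, chromosome X, 99136130 to 99148991, plus strand, mm10) and stood at 32.8 and 37.3 TPM in pups 1 and 2, or 68.9% and 76.1% of ephrin-B TPM. Its relatives Efnb3 (11.4 and 6.78 TPM) and Efnb2 (3.42 and 4.95 TPM), an ephrin known from arteries, stood lower in both pups. The GPI-anchored ephrins were led by Efna5 (ENSMUSG00000048915.8, chromosome 17, 62604184 to 62881317, minus strand) with 23.1 and 18.3 TPM. Efna1 (ENSMUSG00000027954.5, chromosome 3, 89271733 to 89281142, minus strand) had 16.4 and 21.7 TPM. The order of Efna5 and Efna1 thus differed between the pups, and the genes cannot be ranked beyond the spread. Efna2 had 9.17 and 10.8 TPM, and Efna4 and Efna3 stayed under 5 TPM.

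The Eph receptors stood below the ephrins, and EphB receptors above EphA receptors in both pups. Ephb4, a receptor known from veins (ENSMUSG00000029710.11, chromosome 5, 137350109 to 137378669, plus strand), had 14.5 and 18.8 TPM in pups 1 and 2. Ephb6, a receptor whose kinase domain is inactive, followed with 8.48 and 12.9 TPM. Ephb2 (2.82 and 3.48 TPM) and Ephb3 (2.60 and 3.18 TPM) lay close together. No EphA receptor reached a mean of 10 TPM. By TPM over all transcripts, Epha5 led that family with 8.94 and 4.64 TPM, and Epha7 had 2.55 and 4.51 TPM. The lead did not hold in pup 2 on other measures. Over coding transcripts Epha5 had 3.57 and 1.65 TPM, against 3.25 and 2.96 TPM for Epha3. By counts in pup 2, Epha5 (484) stood below Epha3 and Epha7 (540 each). Only Epha5, Epha7, Epha3, Epha2 and Epha10 of the 9 EphA genes reached TPM 1 in both pups.

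Among the semaphorins, Sema3c, a secreted class 3 member (ENSMUSG00000028780.9, chromosome 5, 17574281 to 17730268, plus strand), had 17.98 and 17.81 TPM in pups 1 and 2. These TPM values were close, but its counts (3186 and 2452) were higher in pup 1. Coding transcripts held 61.8% and 58.0% of its TPM. Sema4b, a membrane-bound class 4 member (ENSMUSG00000030539.9, chromosome 7, 80186841 to 80226527, plus strand), had 9.54 and 19.3 TPM, and Sema5b 3.69 and 12.9 TPM. Sema3c was higher than Sema4b in pup 1 and lower in pup 2, so their means (17.9 ± 0.120 and 14.4 ± 6.89 TPM; SD, n = 2) do not rank them. By class, the summed TPM was 37.5 and 37.4 for the 7 class 3 genes and 28.5 and 37.1 for the 6 class 4 genes. It was 20.0 and 17.1 for the 4 class 6 genes and 6.43 and 16.4 for the 2 class 5 genes. The only class 7 gene, Sema7a, had 0.14 and 0.53 TPM. Sema3a, the prototype repellent of axons, had 1.61 and 1.88 TPM, and Sema3e 0.22 and 0.32 TPM.

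The semaphorin receptors included Plxnb2 and Nrp1, the highest of the 70 genes. Plxnb2 encodes a receptor of class 4 semaphorins (ENSMUSG00000036606.12, chromosome 15, 89155549 to 89180788, minus strand) and had 40.3 and 46.2 TPM in pups 1 and 2. Nrp1, a co-receptor of class 3 semaphorins and of VEGF (ENSMUSG00000025810.8, chromosome 8, 128358604 to 128503363, plus strand), had 35.3 and 36.8 TPM, or 82.0% and 82.7% of neuropilin TPM. Nrp2 had 7.77 and 7.68 TPM. Plxnd1, the receptor of Sema3e (ENSMUSG00000030123.11, chromosome 6, 115954811 to 115995005, minus strand), had 6.29 and 14.8 TPM. Plxna1 (7.55 and 11.5 TPM) and Plxnb1 (5.25 and 10.7 TPM) were also higher in pup 2, whereas Plxna4 (8.74 and 3.76 TPM), Plxna3 (4.07 and 3.18 TPM) and Plxnc1 (2.38 and 1.16 TPM) were higher in pup 1.

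The rank of Plxnb2 rested on a short non-coding transcript. Its processed transcript of 841 bases (ENSMUST00000143014.1) held 61.4% of the gene's TPM in pup 1 and 53.1% in pup 2. The coding transcript of 6377 bases (ENSMUST00000109331.3) held 34.4% and 44.5%, or 13.9 and 20.6 TPM, below Nrp1 and Efnb1 in both pups. A short transcript gains TPM from few reads, and by counts Plxnb2 (4296 and 4852) stood below Nrp1 (8274 and 7000). Nrp1 had 1 annotated transcript, and the main coding transcript held 99.7% ± 0.417 of Efnb1, 98.4% ± 1.16 of Efna5, 98.2% ± 1.89 of Efna1 and 81.9% ± 2.57 of Ntn1 (SD, n = 2). For Slit3 it held 52.3% ± 2.63, and for Unc50 the main one of 7 transcripts held 47.5% ± 4.31 (SD, n = 2). Coding transcripts held under 50% of TPM in both pups for Plxnb2, Slit2, Epha5 and Unc5c, which is 4 of the 50 genes at TPM 1 in both pups. The share over all protein-coding genes at that level was 6.78%, so this count lies near the background.

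**Figure D3:**
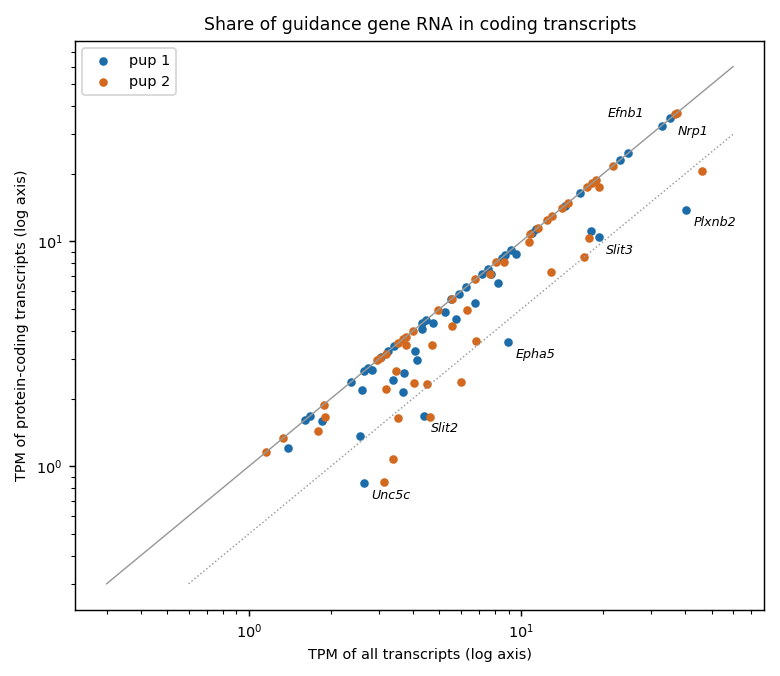
TPM of protein-coding transcripts against TPM of all transcripts for the 50 genes at TPM 1 in both pups (log axes). The solid line marks equal values and the dotted line marks 50%. Plxnb2, Slit2, Epha5 and Unc5c lie under the dotted line in both pups.

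Slit3 led the Slit ligands, and the level of the Robo receptors was higher in pup 2. Slit3 (ENSMUSG00000056427.6, chromosome 11, 35121224 to 35708507, plus strand) had 19.3 and 17.0 TPM in pups 1 and 2, Slit2 4.39 and 6.00 TPM, and Slit1 0.76 and 2.12 TPM. Slit3 was the highest Slit in both pups. Robo1, the main Slit receptor of axons (ENSMUSG00000022883.10, chromosome 16, 72308306 to 73046095, plus strand), had 5.52 TPM (1661 counts) in pup 1 and 17.5 TPM (4276 counts) in pup 2. Robo4, the Robo of endothelial cells (ENSMUSG00000032125.15, chromosome 9, 37401897 to 37415115, plus strand), had 2.64 TPM from 387 counts and 8.06 TPM from 973 counts. Robo2 (ENSMUSG00000052516.13, chromosome 16, 73891839 to 74411825, minus strand) had 1.39 TPM from 255 counts and 4.05 TPM from 569 counts. Robo3, which guides axons across the midline, had 0 and 7 counts. Robo1 held 57.8% and 59.0% of Robo TPM, so the share of Robo1 was close in the pups while the summed level was not.

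The bases before the annotated starts of these Robo genes are shown because the genes were higher in the same pup, and those of Sema4f because it lay furthest in the other direction. The sequences are from RefSeq on GRCm38.p6, written 5′ to 3′ on the strand of the gene, up to 250 bases and ending where an annotated exon begins. They cover chr16:72662899-72663148 (plus strand), chr16:74411826-74412075 (minus strand, the start of the gene model above, with 2 further starts listed), chr9:37401722-37401896 (plus strand) and chr6:82939770-82940019 (minus strand). The RefSeq start of Robo1 lies inside the longer GENCODE gene model given above. Capitals mark E-boxes (CANNTG) and CCAAT boxes on either strand.
Robo1: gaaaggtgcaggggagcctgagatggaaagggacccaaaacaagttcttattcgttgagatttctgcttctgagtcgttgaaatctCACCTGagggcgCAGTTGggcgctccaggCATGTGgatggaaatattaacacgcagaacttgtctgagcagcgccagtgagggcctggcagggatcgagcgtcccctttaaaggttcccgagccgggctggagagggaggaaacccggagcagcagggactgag
Robo2: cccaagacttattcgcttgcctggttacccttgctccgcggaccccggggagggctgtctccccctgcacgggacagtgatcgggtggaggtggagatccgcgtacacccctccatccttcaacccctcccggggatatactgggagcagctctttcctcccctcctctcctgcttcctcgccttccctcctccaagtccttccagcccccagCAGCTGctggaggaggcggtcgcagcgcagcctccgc
Robo4: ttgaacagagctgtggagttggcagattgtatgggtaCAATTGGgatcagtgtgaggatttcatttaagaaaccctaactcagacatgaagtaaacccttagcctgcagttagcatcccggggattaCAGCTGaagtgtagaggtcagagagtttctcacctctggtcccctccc
Sema4f: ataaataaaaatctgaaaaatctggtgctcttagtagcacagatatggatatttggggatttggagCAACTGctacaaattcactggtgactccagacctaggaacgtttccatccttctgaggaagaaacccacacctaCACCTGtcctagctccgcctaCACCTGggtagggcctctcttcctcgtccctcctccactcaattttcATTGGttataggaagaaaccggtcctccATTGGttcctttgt
The Robo1 stretch held 3 E-boxes, that of Robo2 1, that of Robo4 2 and that of Sema4f 3. In Robo4 the first E-box overlaps a CCAAT box on the other strand, and Sema4f held 2 CCAAT boxes on the other strand. An E-box occurs in 62.8% of 21262 windows of 250 bases before the starts of protein-coding genes in the same table, and a CCAAT box in 35.4%. None of the 4 stretches held the nuclear receptor site AAGGTCA, the Ets site CCGGAAG, the GC box GGGCGG, the TATA box TATAAA or the AP-1 site TGACTCA on either strand. Starts were listed for 61 of the 71 genes, with 77 windows in all. The GC box lay in 71.4% of these windows and in 42.6% of all windows, and the TATA box in 2.60% and 11.6%. The E-box lay in 48.1% of these windows, the CCAAT box in 28.6%, the nuclear receptor site in 5.19% (3.59% of all), the Ets site in 3.90% (8.98%) and the AP-1 site in 2.60% (4.06%). The median GC content was 64.4% in the 77 windows and 55.6% in all. A match of letters is a description only.

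Ntn1 made up 97.3% and 97.6% of the netrin TPM. It encodes the secreted netrin that attracts axons through Dcc and repels them through UNC5 receptors (ENSMUSG00000020902.8, chromosome 11, 68209364 to 68400823, minus strand), and it had 24.8 and 14.1 TPM in pups 1 and 2. Ntn4, a netrin of basement membranes, had 0.53 and 0.33 TPM, and Ntn5 0.16 and 0.02 TPM. Among the receptors, Dcc had 0.34 TPM from 70 counts and 0.19 TPM from 32 counts. Neo1, encoding neogenin (ENSMUSG00000032340.7, chromosome 9, 58874687 to 59036441, minus strand), had 10.95 and 12.41 TPM, or 60.6% and 57.4% of netrin receptor TPM. Unc5a had 3.05 and 4.01 TPM, Unc5c 2.65 and 3.39 TPM and Unc5b 0.9 and 1.5 TPM. Unc5d (30 and 13 counts) and Unc5cl (2 and 8 counts) were detected by few reads. Neo1 was thus the highest netrin receptor gene in both pups, with Dcc far below it. Unc50 (ENSMUSG00000026111.11, chromosome 1, 37430139 to 37439124, plus strand) had 132 and 162 TPM, and would have held 88.0% and 88.2% of netrin receptor TPM had it been counted there.

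Ligands and receptors known to bind were compared within each pup as the log2 ratio of summed TPM. Ephrin-A exceeded EphA (without Epha10) with 1.68 in pup 1 and 1.63 in pup 2, and ephrin-B exceeded EphB1 to EphB4 with 1.21 and 0.90. Ephb6 was left out of this pair on every measure. With Ephb6 the EphB genes summed to 29.1 and 39.2 TPM, against 47.6 and 49.1 TPM for ephrin-B, a smaller excess. Single partners could go the other way, as Efnb2 lay below its receptor Ephb4 with -2.08 and -1.93. Class 3 semaphorins that bind neuropilins summed to 37.3 and 37.1 TPM against 43.1 and 44.5 TPM for neuropilins, a ratio of -0.24 ± 0.0374 (SD, n = 2).

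Pairs of single semaphorins and receptors varied in size and direction. Sema3e lay below Plxnd1 with -4.84 and -5.53, and Sema3a lay below Nrp1 with -4.45 and -4.29. Sema3f lay below Nrp2 with -1.07 and -0.71, and Sema4c with Sema4g lay below Plxnb2 with -2.55 and -2.27. Over coding transcripts alone, which leave out the short transcript of Plxnb2, the latter ratios were -1.03 and -1.23. Sema7a and its receptor Plxnc1 gave -4.09 and -1.13. This gap drew on both genes, as Sema7a had 18 and 56 counts and Plxnc1 666 and 263. Sema5a exceeded Plxnb3, a receptor at 0.73 and 0.64 TPM, with 1.91 and 2.47. Sema6d against Plxna1 (0.12 and -1.04) and Sema6a with Sema6b against Plxna2 with Plxna4 (-0.31 and 0.74) changed sign between the pups. Sema4d lay below Plxnb1 in both pups, with -0.28 and -1.51.

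By TPM, Slit and netrin ligands exceeded their receptors by a margin that differed between the pups. Slits summed to 24.4 and 25.1 TPM against 6.91 and 21.5 TPM for Robo1 and Robo2, with log2 ratios of 1.82 and 0.22. Over coding transcripts alone these ratios were 0.93 and -0.60, so the excess of Slits in pup 2 did not hold on that measure. Ntn1 exceeded Dcc with Neo1 by 1.13 and 0.17, and the 4 UNC5 receptors by 1.89 and 0.66. The excess over UNC5 receptors also held by counts (mean 1.56, against 1.28 by TPM) and over coding transcripts (mean 1.72). By counts, which are not per length, the mean ratio was 0.05 for Slits with Robo1 and Robo2 (1.02 by TPM). It was also 0.05 for Ntn1 with Dcc and Neo1 (0.65 by TPM). Each of these means joins an excess of ligand counts in pup 1 and of receptor counts in pup 2. Ntn1, for example, had 4684 and 2253 counts against 3221 and 2964 for Neo1. Neither the Slit excess nor that of Ntn1 over Dcc and Neo1 thus held in both pups by counts. By TPM, the Slit and netrin margins were smaller in pup 2, where Robo1 and Robo2 TPM were higher and Ntn1 TPM was lower.

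**Figure D4:**
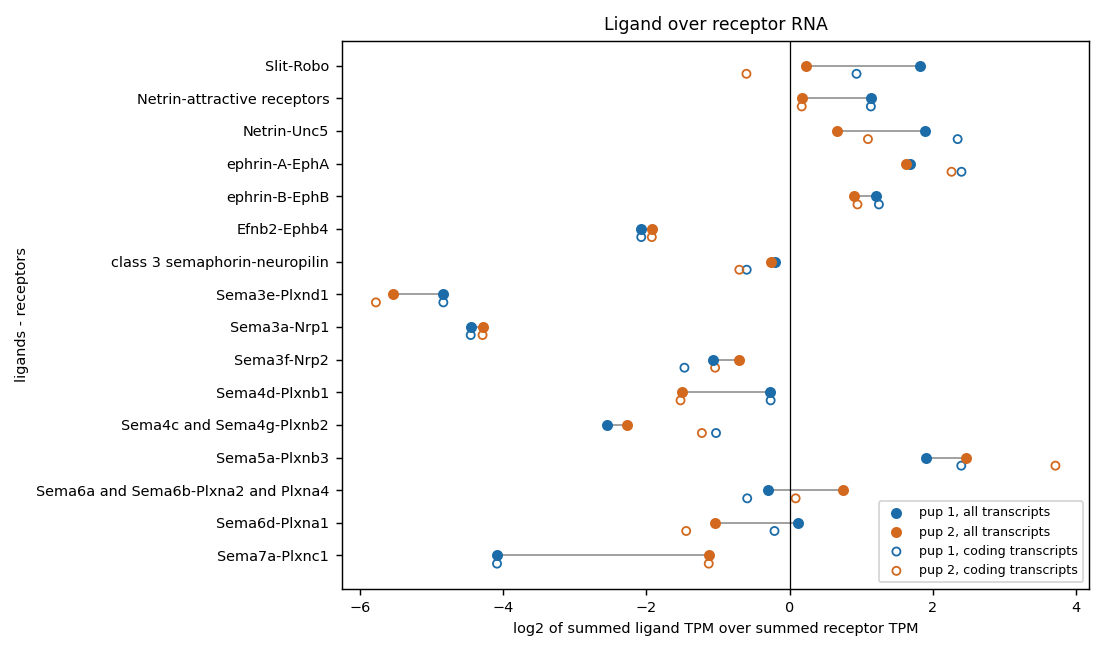
Log2 of summed ligand TPM over summed receptor TPM for 16 groups of known partners in each pup, for all transcripts (filled) and coding transcripts (open). Ephrin-A lies above EphA at 1.68 and 1.63, and Sema3e lies furthest below its receptor Plxnd1 at -4.84 and -5.53.

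The pups were then compared by counts scaled with TMM, a method that sets the bulk of genes level, as log2 of pup 2 over pup 1. Among 66 guidance genes averaging 10 or more counts, 23 were higher in pup 2 (50.1% of 18670 genes were) and 43 in pup 1. Their median was -0.20, and that of all these genes 0.00. TPM ratios run above these ratios by a median of 0.39 over all genes, so a gene near 0 can be higher in pup 1 by counts and in pup 2 by TPM, as the median of these genes is (0.19 by TPM). Of 59 that averaged 100 or more, 12 (20.3%) differed over 2-fold, against 9.13% of 13870 genes. Higher in pup 2 were 5 (8.47%, against 2.78%) and higher in pup 1 were 7 (11.9%, against 6.35%). Ligand genes had a median of -0.29 with 25 of 33 higher in pup 1, and receptor genes a median of -0.11 with 18 of 33 higher in pup 1.

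The genes over 2-fold higher in pup 2 were Sema5b, Robo1, Robo4, Slit1 and Robo2. Sema5b had 420 and 1198 counts and a log2 ratio of 1.43, with a 95% counting interval of 1.27 to 1.59. The ratio was 1.28 for Robo1 (1.20 to 1.36), 1.24 for Robo4 (1.07 to 1.42) and 1.07 for Robo2 (0.86 to 1.29). Slit1, with 166 and 382 counts, had 1.11 (0.85 to 1.39). The intervals of Robo2 and Slit1 reach below 1, so at this depth a difference under 2-fold is not set apart. Plxnd1, with 1729 and 3310 counts, lay just short of 2-fold at 0.85. The intervals of these ratios hold counting error alone, and reads that carry no molecular identifier are not separate molecules. By the quantifier's own TPM intervals, which are separate from these, 31 of the 50 genes at TPM 1 in both pups (62.0%) did not overlap between the pups, against 74.2% of protein-coding genes at that level.

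Those over 2-fold higher in pup 1 were Sema4f, Efna3, Plxna4, Plxnc1, Epha5, Ntn1 and Efnb3. Sema4f, a class 4 semaphorin of neurons, had 695 counts (4.32 TPM) in pup 1 and 174 (1.33 TPM) in pup 2, a log2 ratio of -2.08 (-2.33 to -1.84). Efna3 had 402 and 126 counts (4.73 and 1.91 TPM) and a ratio of -1.75 (-2.06 to -1.47). Plxna4, a receptor of class 6 semaphorins and a partner of neuropilins, had 4504 and 1574 counts and a ratio of -1.60 (-1.69 to -1.52).

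The remaining 4 genes of that direction lay between these and the 2-fold limit. Plxnc1, with 666 and 263 counts, had a log2 ratio of -1.42. Epha5, with 1180 and 484 counts, had -1.37, and Ntn1, with 4684 and 2253 counts, -1.14. Efnb3, whose protein binds EphB receptors, had 1415 and 685 counts and -1.13 (-1.27 to -0.999). By TPM, Epha5 (-0.95), Ntn1 (-0.81) and Efnb3 (-0.75) lay under 2-fold. Scaling by the spike-in counts, under which the median log2 ratio over all genes is 2.56, turned the sign of all 7, so these directions are relative to the bulk of genes. Sema6d (-0.99) and Plxna3 (-0.92) lay just inside 2-fold.

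**Figure D5:**
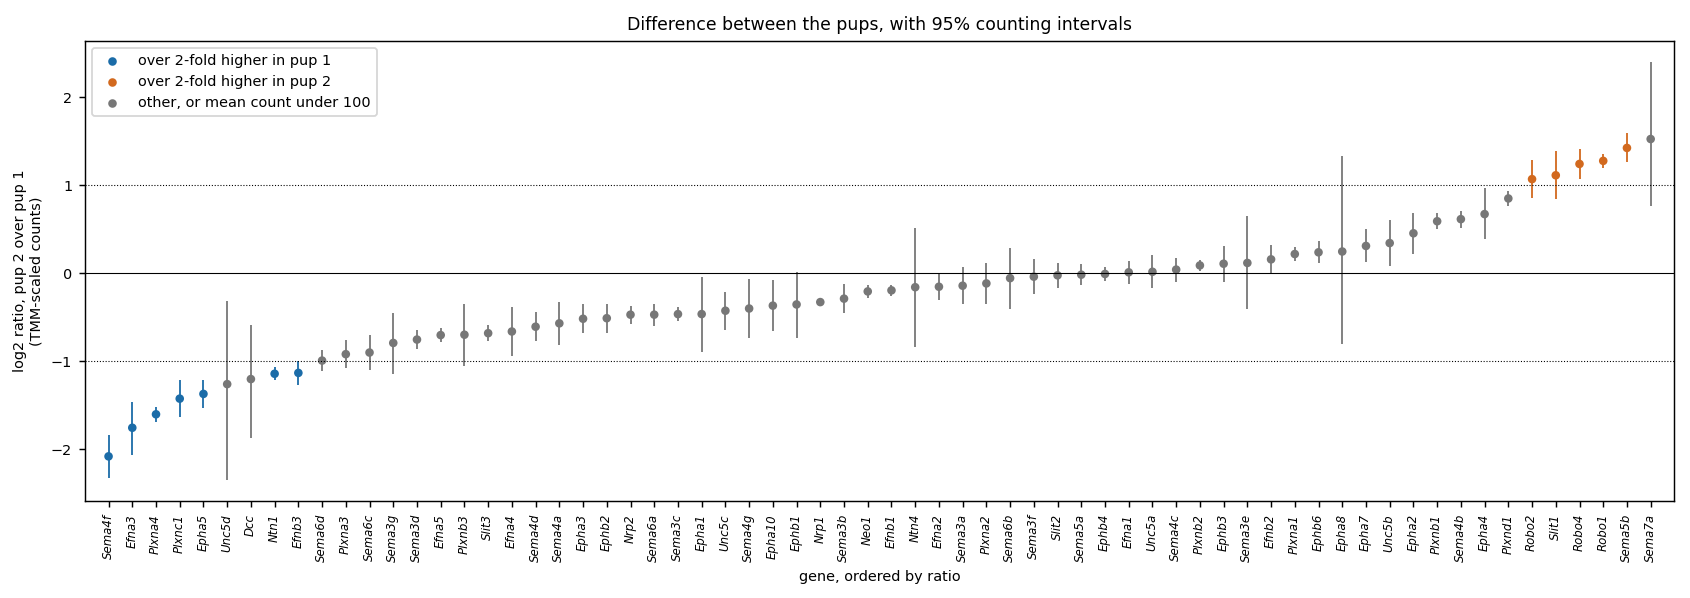
Log2 ratio of pup 2 over pup 1 from TMM-scaled counts for 66 guidance genes averaging 10 or more counts, with 95% counting intervals as lines and dotted lines at 2-fold. Sema4f (-2.08) lies lowest, and the 3 measured Robo genes lie together above 1.

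Among the 11 families, Robo was the only one whose members averaging 10 or more counts all differed over 2-fold, since Robo1, Robo2 and Robo4 ranged from 1.07 to 1.28. Both neuropilins were slightly higher in pup 1, with -0.33 for Nrp1 and -0.47 for Nrp2. For 15 of 20 semaphorins pup 1 had the higher value, and their median was -0.34 (range -2.08 to 1.53). Class 6 semaphorins were all higher in pup 1 (median -0.68 over 4 genes). Plexins divided into 4 higher in pup 2 and 5 in pup 1, EphA receptors into 4 and 4, and EphB receptors into 2 and 3. Ephrin-A genes had a median of -0.66, with Efna1 at 0.01. Counting intervals that include 0 were found for a number of genes, among them Ephb4 (-0.01), Slit2 (-0.02), Efna1, Ephb3, Ephb1 and Sema6b. The direction of such genes in these splits is not set apart at this depth.

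Genes that act inside the cell downstream of these receptors were present nearly throughout. Of 47 effectors and partners, 46 reached TPM 1 in both pups, led by the actin-severing Cfl1 (709 and 913 TPM) and the small GTPases Cdc42 (329 and 484 TPM), Rhoa (214 and 324 TPM) and Rac1 (165 and 234 TPM). Their median log2 ratio was -0.08. Of 45 averaging 100 or more counts, 0 were over 2-fold higher in pup 2 (2.78% of all genes tested were) and 5 were over 2-fold higher in pup 1 (6.35% of all). These 5 were Dpysl2 (-1.07), Dpysl3 (-1.67), Dpysl4 (-1.69), Dpysl5 (-2.20) and Crmp1 (-1.54), the collapsin response mediator genes that relay semaphorin signals. Dpysl3 had 196 and 77.1 TPM in pups 1 and 2, and Crmp1 68.4 and 30.7 TPM.

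Guidance molecules outside these families were led by the syndecan gene Sdc3 (38.0 and 48.0 TPM), the sheddase gene Adam10 (24.8 and 31.7 TPM), the glypican gene Gpc1 (20.9 and 26.6 TPM) and the adhesion gene L1cam (26.6 and 9.61 TPM). Pup 1 had the higher value for 17 of 24 matched genes, and the median was -0.70. Of 18 averaging 100 or more counts, 7 were over 2-fold higher in pup 1, where 6.35% of all genes tested were, namely Chl1 (-2.15), L1cam (-1.93), Nrcam (-1.55), Cntn1 (-1.20), Ntng1 (-1.18), Ptpro (-1.09) and Rgma (-1.06). Chl1, L1cam, Nrcam and Cntn1 encode adhesion molecules of the immunoglobulin family found on axons. Only Kdr, the VEGF receptor gene of endothelial cells, was over 2-fold higher in pup 2 (7.35 and 20.8 TPM, 1.12), as were 2.78% of all genes tested.

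Markers of cell types moved with these differences, and their part in them was not tested. Each of the 10 neuron markers was higher in pup 1 (median log2 ratio -1.99; summed TPM 1591 and 513). All 9 Schwann cell and glia markers were higher in pup 1 too (median -0.79; 201 and 123 TPM). All 10 steroidogenic cortex markers were higher in pup 2 (median 1.22; 7611 and 20121 TPM), as were 8 of 10 endothelial markers (median 0.61; 269 and 444 TPM), with Egfl7 and Cdh5 the exceptions. The 10 chromaffin markers divided 5 and 5 (median -0.08; 1705 and 3667 TPM). All 10 stroma markers (median -0.75; 2799 and 2344 TPM), all 7 liver markers (median -0.82; 2879 and 2216 TPM) and 6 of 8 leukocyte markers (median -0.34; 590 and 489 TPM) were higher in pup 1. The markers of cortex, chromaffin cells, endothelium, neurons, glia, stroma, liver and leukocytes all reached TPM 1 in both pups.

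Markers of other organs differed as well. Each of the 7 stomach and oesophagus markers was higher in pup 1 (median -4.83; 149 and 6.23 TPM). All 7 skeletal muscle markers (median 2.01; 73.1 and 301 TPM), 5 of 6 kidney markers with enough counts (median 2.58; 3.20 and 17.2 TPM) and 3 of 4 such adipocyte markers (median 1.19; 5.40 and 32.6 TPM) were higher in pup 2. No marker of any list was at 0 counts in both pups.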

How the data were processed

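Total RNA from 2 newborn mouse adrenal libraries, 1 per pup, was analysed. Per the file headers, the authors deposited expected counts, which are estimates and not always whole, posterior mean counts, TPM scaled over all rows and the quantifier's interval for TPM. For transcripts they also deposited the isoform percent, each transcript's part of its gene. The text deposited with each library names mm10 and GENCODE M4. The sources used here do not name an aligner or quantifier, nor how strand was handled. Without known strand, reads of Plxna4 and its antisense genes cannot be told apart.

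Symbols, gene types, transcript types and gene coordinates were looked up by Ensembl identifier in GENCODE M21, also on mm10 (42462 of 43346 genes). Of 348 transcripts of these genes, 2 had no type there. Spike-in rows (97 rows; 0.0138% and 0.00250% of counts) and rows named by a number (26248 rows) were left out. Counts were rounded. Ratios are log2 of pup 2 over pup 1 with 0.5 added, from counts scaled by TMM (edgeR 4.0.16, R 4.3.3). A ratio needed a mean count of 10, and a gene called over 2-fold apart one of 100. Intervals are exact binomial 95% intervals for counting error. No test was run, since each pup is 1 library and p-values cannot be had. The ratio steps were tested on simulated data. Sequences came from RefSeq (GRCm38.p6).

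The genes, lists, pairs and rules were chosen with earlier results of these data known. Genes were named if their mean TPM was at least 10, if they led their family or if they lay over 2-fold apart, with genes under TPM 1 named by symbol and others named beside their family or partner. From the lists of effectors and other guidance molecules, the 4 most abundant and those over 2-fold apart were named, and Hjv had no match. Alternatives were DESeq2 1.42.0 size factors, spike-in scaling, TPM ratios, other minimums, another pseudocount, posterior means, counts in place of TPM, a length trend and leaving out each pup. Setting Unc50 apart and summing coding transcripts alone were chosen after seeing the data. Python 3.11.15, numpy 2.4.6, pandas 2.3.3, scipy 1.17.1 and matplotlib 3.10.9 were used.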

Additional observations from a re-analysis of the deposited data

How the results depend on the processing

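No paired analysis was possible because there is 1 group. The number of genes at TPM 1 in both pups (50) stayed within 1.5 times its value under each alternative run. It was 60 at a TPM minimum of 0.5 and 43 at a minimum of 2. With TPM taken over nuclear protein-coding genes it was 58, and over coding transcripts 48. Over coding transcripts alone, family shares of the summed TPM were 14.3% for ephrin-A, 12.1% for ephrin-B, 3.22% for EphA, 8.34% for EphB, 19.7% for semaphorins, 14.1% for plexins, 10.9% for neuropilins, 3.26% for Slits and 4.44% for netrin receptors, against 12.1%, 10.3%, 4.23%, 7.19%, 21.3%, 17.9%, 9.29%, 5.26% and 4.19% over all transcripts. As shares of counts, which are not per length, they were 6.86% for ephrin-A, 7.62% for ephrin-B, 3.75% for EphA, 20.3% for semaphorins, 22.5% for plexins, 12.4% for neuropilins, 4.26% for Slits and 5.72% for netrin receptors. With Unc50 counted they were 9.27%, 7.83%, 3.23%, 5.48%, 16.2%, 13.6%, 7.09%, 4.01% and, for netrin receptors, 26.9%, in the order first given. Posterior mean TPM gave 22.2% for semaphorins.

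Ligand over receptor ratios (log2) moved with the measure. By counts they were 0.98 for ephrin-A and EphA, 0.64 for ephrin-B and EphB, -0.66 for class 3 semaphorins and neuropilins, -1.93 for Sema3f and Nrp2, -1.80 for Sema4d and Plxnb1, -2.15 for Sema4c with Sema4g and Plxnb2, 3.12 for Sema5a and Plxnb3 and -1.36 for Sema6a with Sema6b and Plxna2 with Plxna4. Slits with Robo1 and Robo2 and Ntn1 with Dcc and Neo1 both came to 0.05, within 1 SD of their TPM values. In both cases the pups had opposite signs by counts. Ntn1 with the UNC5 receptors came to 1.56 by counts (1.28 by TPM). By coding transcripts the ratios were 2.33 for ephrin-A and EphA, -0.65 for class 3 semaphorins, -1.26 for Sema3f, -1.13 for Sema4c with Sema4g and 3.06 for Sema5a. By posterior mean TPM they were 1.58 for ephrin-A and EphA, -0.11 for class 3 semaphorins, -3.99 for Sema3a and Nrp1 and -0.57 for Sema3f. The cause was not tested, beyond the length and transcripts that each measure leaves out.

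Between the pups, spike-in scaling gave a median log2 ratio of 2.37, with 56 genes over 2-fold higher in pup 2 and 0 in pup 1. It reversed Sema4f (0.49), Efnb3 (1.44), Ntn1 (1.43), Efna3 (0.81), Epha5 (1.20), Plxna4 (0.97) and Plxnc1 (1.14). TPM ratios gave a median of 0.19, with 9 genes over 2-fold higher in pup 2 and 4 in pup 1. The medians over all genes were 2.56 under spike-in scaling and 0.39 by TPM. The share of all genes over 2-fold apart on these scales is not given here, so these numbers of genes are not set against a background. DESeq2 size factors, another pseudocount and removal of a length trend kept the median of the guidance genes between -0.20 and -0.18. DESeq2 size factors shift the ratios of all genes nearly alike. Posterior mean counts gave the same median and the same ratios for the 12 genes over 2-fold apart, so they are no separate check. A minimum of 50 counts for genes called apart cannot move the median. It gave 8 genes over 2-fold higher in pup 1 in place of 7. The share of all genes at that minimum is not given here, so this number has no background beside it. Posterior means gave 96.0% for the main transcript of Efna1 and 99.1% for that of Efnb1. At this depth Robo3, Ntn5, Unc5cl and Epha6, with mean counts under 10, cannot be compared between the pups.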

Other observations

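Several of these genes lie near each other in the genome, with levels or pup ratios that differed in some cases and were close in others. Efna1, Efna3 and Efna4 lie on chromosome 3 with gaps of 32.8 and 10.4 kb, and had log2 ratios of 0.01, -1.75 and -0.66. Robo4 and Robo3 lie 0.553 kb apart on chromosome 9, with 973 counts for Robo4 and 7 counts for Robo3 in pup 2. Ephb2 (2.82 and 3.48 TPM) and Epha8 (0.08 and 0.13 TPM) lie 93.4 kb apart on chromosome 4. Sema3b and Sema3f, 72.3 kb apart on chromosome 9, had 5.74 and 6.32 TPM and 3.71 and 4.70 TPM. Robo1 and Robo2, on opposite strands of chromosome 16 with a gap of 846 kb, had ratios of 1.28 and 1.07.

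The transcripts of Robo4 were used unevenly, by values looked at after the gene had been named. Its main coding transcript (ENSMUST00000102895.4) held 76.0% of TPM in pup 1 and 48.3% in pup 2, and a second one (ENSMUST00000115048.3) 24.0% and 35.4%. Whether this differs beyond the spread of either pup cannot be told with 1 library each. The antisense gene Plxna4os2 had 78 counts in pup 1 and 29 in pup 2, and Plxna4os1 46 and 13, beside 4504 and 1574 for Plxna4.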
